A study of Arabidopsis thaliana with 4 samples.

Results

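The cytochrome P450 genes of Arabidopsis thaliana described here are those that the table names with CYP, digits and a letter, other than a fixed set of loci, chiefly of camalexin, glucosinolate, jasmonate, brassinosteroid and flavonoid metabolism. Of 33557 genes in the table, 235 carried such a name, 16 of those were left out, and 219 remained. All plants were of the accession Col-0 and grew vertically for 7 days on agar-solidified MS medium without phosphate, so that phosphate deprivation was common to all libraries. The 4 genotypes were hho2phr1 (the double mutant), phr1 (a SALK T-DNA single mutant), hho2-1 (a SALK T-DNA single mutant) and Col-0 (the wild type), with 1 library each of poly(A)+ RNA. The harvested part of the plant and the number of plants behind a library are not stated.

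Cytochrome P450 enzymes are haem proteins that use molecular oxygen and electrons from NADPH, passed on by a P450 reductase, to hydroxylate, epoxidise or desaturate small molecules. Plants hold a large family of them. Members make or inactivate hormones, build sterols, carotenoids, lignin, cutin and suberin, and produce terpenoid and indolic compounds, some of them chiefly in roots. PHR1, a MYB-related protein, is a central activator of the response to phosphate starvation, and HHO2 is a GARP-family transcription factor related to HRS1.

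Levels are the authors' FPKM values, fragments per kilobase of transcript scaled to library size, each with their 95% interval. From the steps between low values, library sizes were estimated at 40400000 fragments for hho2phr1, 39200000 for phr1, 44700000 for hho2-1 and 47700000 for Col-0, so that 1 fragment on a transcript of 1500 nucleotides gave between 0.0161 and 0.0196 FPKM. PHR1 itself stood at 6.50 FPKM in hho2phr1 and 7.54 in phr1, compared with 43.2 in hho2-1 and 37.7 in Col-0. HHO2 stood at 51.8 FPKM in hho2phr1 and 59.8 in hho2-1, compared with 81.2 in phr1 and 90.7 in Col-0, so its transcript was lower but still present with the hho2-1 allele. Summed levels of 4 shoot markers lay between 1856 FPKM in phr1 and 2551 in hho2phr1, and 4 root markers summed to 245 FPKM in hho2phr1, 233 in phr1, 196 in hho2-1 and 243 in Col-0. Transcripts of both marker sets were thus present, which does not show which part of the plant was harvested. The seed markers differed most: 4 seed genes summed to 91.3 FPKM in hho2phr1, 3.93 in phr1, 64.0 in hho2-1 and 15.2 in Col-0. In whole-plant or organ RNA, fewer cells of a type and less RNA per cell cannot be told apart.

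The reference annotation described 218 of the 219 members as cytochrome P450, the exception being CYP51G2, and listed 207 as protein coding and 12 as pseudogenes. Of the 207 coding sequences, 165 held the usual form of the haem-binding loop, a stretch of 10 codons that begins with phenylalanine and holds the cysteine that binds the haem iron. This codon was TGT in 127 and TGC in 38 of them. The loop follows, 5′ to 3′ on the coding strand in TAIR10.1, for the members with the clearest differences that hold it and for CYP71B21 and CYP71B23, the neighbours of CYP71B22 on the chromosome, with the cysteine codon in capitals.

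CYP71B22: tttggtgctggtcgcaggattTGTccagga
CYP71B21: ttcggtggaggccgtaggatcTGTcccggg
CYP71B23: tttggttctggtagaaggattTGTcccggt
CYP81D8: tttgggttaggaagaagggcgTGTcctggt
CYP702A5: tttggctctggtactagactaTGTgtggga
CYP89A6: tttggagcgggaagaaggataTGTcccggg

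Members ranged from silent to abundant. Of the 219, 14 were at 0 FPKM in all 4 libraries, 67 were above 0 but under 1 FPKM in all of them, and 138 reached 1 FPKM in at least 1 library (63.0%, against 61.5% of all genes). Of these 138, 62 had a mean under 10 FPKM, 70 a mean of 10 to 100 and 6 a mean of at least 100. Of the 12 pseudogenes, 4 reached 1 FPKM. Together the members summed to 3601 FPKM in hho2phr1, 3427 in phr1, 3278 in hho2-1 and 3538 in Col-0, between 0.328% and 0.360% of all FPKM.

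**Figure D1:**
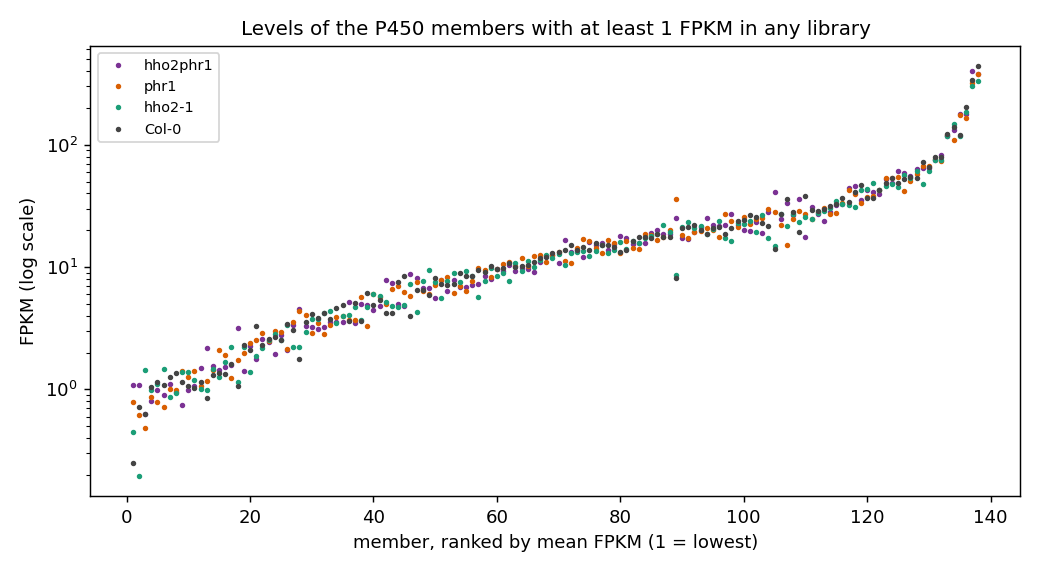
FPKM on a log scale of the 138 P450 members that reached 1 FPKM in at least 1 library, ranked by their mean, with 1 point per library. The points of a member lie close together over most of the range, and 6 members have a mean of at least 100 FPKM.

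Among the most abundant members were enzymes of root triterpenes, indole glucosinolates and sterols. CYP705A5 and CYP708A2, neighbours that desaturate and hydroxylate the triterpene thalianol, stood at 378 FPKM in hho2phr1, 378 in phr1, 331 in hho2-1 and 436 in Col-0 for the first and 177 FPKM in hho2phr1, 165 in phr1, 184 in hho2-1 and 203 in Col-0 for the second. CYP81F4, which prepares indole glucosinolates for methoxylation, stood at 397 FPKM in hho2phr1, 318 in phr1, 299.9 in hho2-1 and 335 in Col-0, on an interval that overlaps another gene. CYP71B6, which acts on indole-3-acetonitrile, stood at 176 FPKM in hho2phr1, 175 in phr1, 117 in hho2-1 and 121 in Col-0, also on a shared interval.

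CYP71B7 stood at 131 FPKM in hho2phr1, 109 in phr1, 147 in hho2-1 and 139 in Col-0. CYP51G1, the sterol 14-alpha-demethylase, was the steadiest of the members with a mean of at least 10 FPKM, at 118 FPKM in hho2phr1, 120.3 in phr1, 117 in hho2-1 and 122 in Col-0. CYP98A3, the hydroxylase of the lignin pathway that acts on p-coumaroyl shikimate, stood at 82.2 FPKM in hho2phr1, 73.9 in phr1, 75.1 in hho2-1 and 78.9 in Col-0, on a shared interval. Next in order came CYP72A13, between 74.8 FPKM in hho2phr1 and 79.0 in Col-0. CYP89A9, known for the oxidation of chlorophyll breakdown products, lay between 61.2 FPKM in hho2-1 and 66.4 in phr1, and CYP705A12 between 47.7 FPKM in hho2-1 and 72.0 in Col-0.

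The highest level over the lowest was 1.25-fold at the median of the 76 members with a mean of at least 10 FPKM, against 1.201-fold at the median of all 12596 such genes. For 31 of the 76 members (40.8%) it was below 1.2-fold, against 49.5% of all such genes. It reached 2-fold for 4 members, CYP71B22, CYP81D8, CYP716A2 and CYP702A5 (5.26%, against 2.104% of all such genes).

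With 1 library per genotype no test between genotypes was run, and differences are described by size. Values were compared as log2(FPKM + 1) among genes with at least 1 FPKM in either library, and a difference of at least 1 was called 2-fold. The added 1 makes the differences of low genes smaller than their ratio. Under this rule 5 of the 138 members (3.62%) were 2-fold different in at least 1 of 5 comparisons, where 3.42% of all 20650 genes were. Of all genes compared, between 48.4% (hho2phr1 against phr1) and 50.7% (hho2phr1 against hho2-1) had a difference above 0. Of the members, between 38.5% (hho2-1 against Col-0) and 51.5% (hho2phr1 against hho2-1) did.

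The phr1 allele was compared with intact PHR1 in 2 pairs of libraries that share none, phr1 against Col-0 and hho2phr1 against hho2-1. In phr1 against Col-0, 2 of 135 members were 2-fold different (1.48%), where 1.35% of all 20323 genes were. CYP71B22 was higher, where 0.773% of all genes were 2-fold higher, and CYP716A2 was lower, where 0.576% were 2-fold lower. In hho2phr1 against hho2-1, 2 of 136 members were 2-fold higher (1.47%) and 0 lower, where 1.27% of all 20456 genes were higher and 0.719% lower, 1.98% in all. These 2 were CYP71B22 and CYP81D8. At this size the shares of members were near those of all genes. In both pairs, in the same direction, the count was 1 of 133 members, where 0.507% of 20129 genes met that rule, 71 higher and 31 lower. The median difference of the members was -0.02 in phr1 against Col-0 and 0.02 in hho2phr1 against hho2-1, against 0.00 and 0.01 over all genes.

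At a smaller size, a log2 difference of at least 0.5, chosen after the data had been seen, 11 members differed in phr1 against Col-0, 8 higher and 3 lower (8.15%), where 4.83% of all genes did, 586 higher and 396 lower. In hho2phr1 against hho2-1 the count was 19, 17 higher and 2 lower (13.97%), where 11.5% of all genes differed, 1037 higher and 1323 lower. Members past this size were thus mostly higher in a comparison in which all genes past it were more often lower. The 2 members past 2-fold in each pair also had intervals apart, where 0.64% of all genes in phr1 against Col-0 and 1.13% in hho2phr1 against hho2-1 were 2-fold different with intervals apart. At any size, intervals were apart for 4 members in phr1 against Col-0, 3 higher and 1 lower, where they were for 1.25% of all genes, 171 higher and 83 lower. In hho2phr1 against hho2-1 they were apart for 8 members, where they were for 4.01% of all genes, 362 higher and 458 lower. All 8 were higher in hho2phr1, namely CYP71B22, CYP81D8, CYP89A6, CYP706A2, CYP710A1, CYP710A4, CYP706A7 and CYP89A2.

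The member past the rule in both pairs was CYP71B22 (AT3G26200, chromosome 3, 9589282 to 9591179 in TAIR10), whose substrate is not named here. It stood at 25.3 FPKM in hho2phr1, 35.7 in phr1, 8.58 in hho2-1 and 8.07 in Col-0. The authors' intervals were 19.7 to 31.0 in hho2phr1 and 28.0 to 43.5 in phr1, compared with 6.33 to 10.8 in hho2-1 and 5.92 to 10.2 in Col-0. Both libraries with the phr1 allele were thus above both without it, with no overlap of intervals. The log2 difference was 2.02 in phr1 against Col-0, a ratio of 4.43, and 1.46 in hho2phr1 against hho2-1, a ratio of 2.95.

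CYP81D8 (AT4G37370, chromosome 4, 17569828 to 17571704), a gene known to respond to oxylipins and xenobiotic chemicals, came next. It stood at 41.0 FPKM in hho2phr1, 28.0 in phr1, 14.98 in hho2-1 and 14.2 in Col-0. The difference was 1.39 in hho2phr1 against hho2-1 and 0.94 in phr1 against Col-0, a value just under the 2-fold rule. Intervals were apart in both pairs, at 32.2 to 49.9 in hho2phr1 and 21.8 to 34.2 in phr1, compared with 11.4 to 18.6 in hho2-1 and 10.7 to 17.6 in Col-0. The phr1 interval and that of hho2phr1 overlapped each other.

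CYP706A2 (AT4G22710, chromosome 4, 11934969 to 11936755) was the third with intervals apart in both pairs. It stood at 4.50 FPKM in hho2phr1, 4.36 in phr1, 2.23 in hho2-1 and 1.77 in Col-0. The log2 difference was 0.95 in phr1 against Col-0, a ratio of 2.46, and 0.77 in hho2phr1 against hho2-1, a ratio of 2.01. Its coding sequence was 97.3% identical to that of CYP706A1, so how reads were divided between them bears on its value. CYP706A1 stood at 60.5 FPKM in hho2phr1, 53.9 in phr1, 45.0 in hho2-1 and 48.6 in Col-0, a much higher level with smaller differences.

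**Figure D2:**
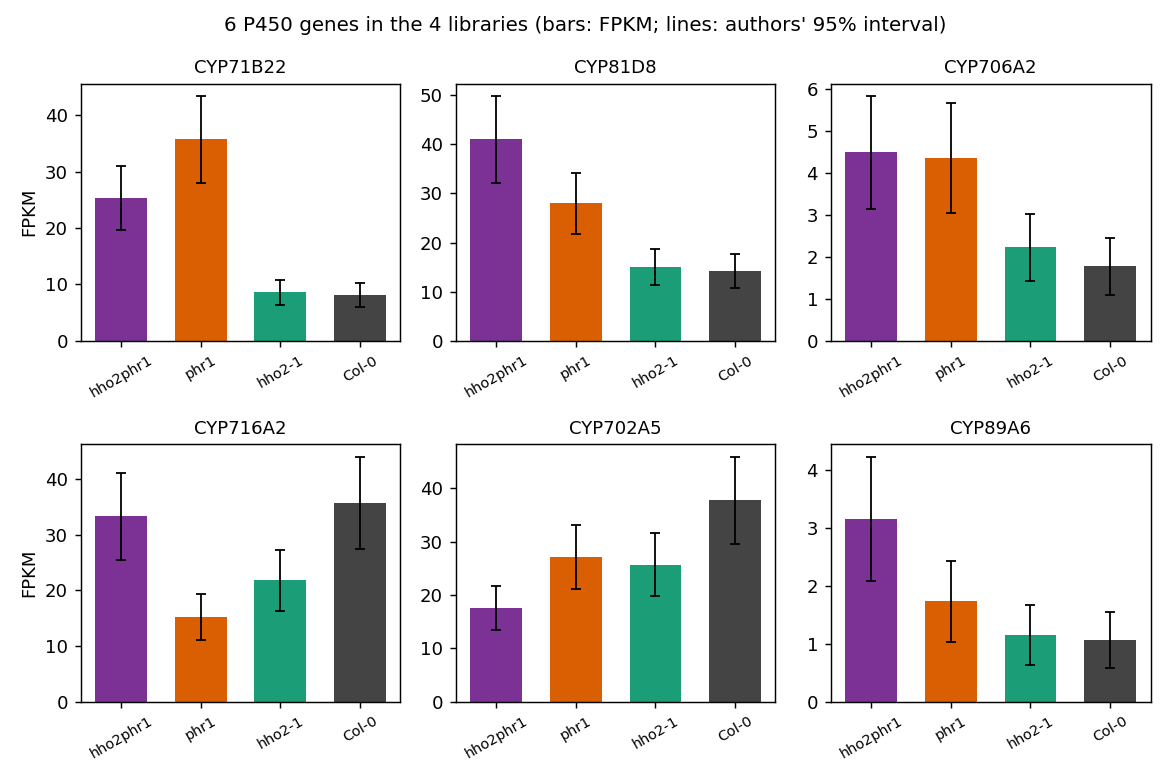
FPKM of 6 P450 members in the 4 libraries, with bars for the value and lines for the authors' 95% interval. CYP71B22, CYP81D8 and CYP706A2 are higher in hho2phr1 and phr1 than in hho2-1 and Col-0, CYP716A2 is lowest in phr1 at 15.2 FPKM, and CYP702A5 and CYP89A6 have their lowest and highest level in hho2phr1.

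At the smaller size of 0.5, 6 members were higher with the phr1 allele in both pairs and 0 were lower. Over all genes 2.02% met this size in the same direction in both pairs, 293 higher and 114 lower, so all genes also leaned to higher. Besides the 3 above these were CYP72A8, CYP71B6 and CYP76C2, none with intervals apart in either pair. CYP72A8 stood at 35.7 FPKM in hho2phr1, 28.9 in phr1, 23.5 in hho2-1 and 19.2 in Col-0. CYP71B6, with the values above, differed by 0.54 in phr1 against Col-0 and by 0.59 in hho2phr1 against hho2-1. CYP76C2, of a subfamily that oxidises the monoterpene linalool, stood at 7.34 FPKM in hho2phr1, 6.60 in phr1, 4.82 in hho2-1 and 4.18 in Col-0.

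Of 3 salicylate markers, which summed to 177 FPKM in hho2phr1, 126 in phr1, 23.9 in hho2-1 and 38.7 in Col-0, PR1 was also higher in both libraries with the phr1 allele, at 157 FPKM in hho2phr1, 111 in phr1, 10.5 in hho2-1 and 20.8 in Col-0. PR2 stood at 12.9 FPKM in hho2phr1, 6.20 in phr1, 7.49 in hho2-1 and 9.16 in Col-0, and PR5 at 6.84 FPKM in hho2phr1, 8.35 in phr1, 5.93 in hho2-1 and 8.74 in Col-0, so that both were lower in phr1 than in Col-0. The 2 heat and handling markers summed to 34.3 FPKM in hho2phr1 and 37.5 in phr1, compared with 27.2 in hho2-1 and 16.4 in Col-0. Their part in the P450 differences was not tested.

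**Figure D3:**
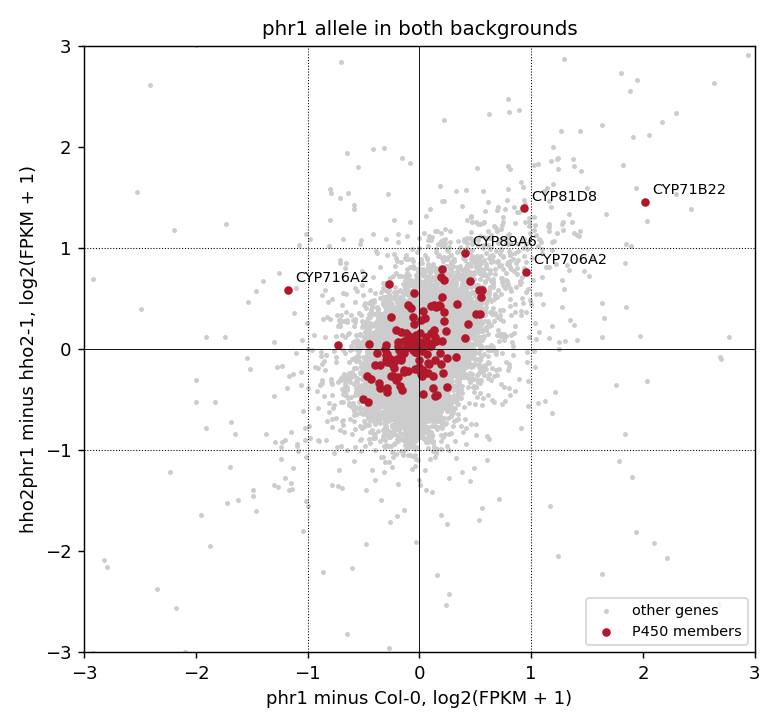
Log2 difference of each gene with the phr1 allele, in phr1 against Col-0 (x axis) and in hho2phr1 against hho2-1 (y axis), with the P450 members in red, other genes in grey and dotted lines at a difference of 1. CYP71B22 lies past 1 on both axes at 2.02 and 1.46, CYP716A2 lies on opposite sides of 0, most members lie near 0, and 34 other genes fall outside the axes.

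Since these members were higher with the phr1 allele, the 250 bases before their annotated start in RefSeq (TAIR10.1) are shown for the 3 with intervals apart in both pairs. Those of CYP716A2, which is described further on, are shown as well. Capitals mark any of 3 short motifs searched on both strands: GNATATNC, known as P1BS and bound by PHR1, TTGAC, the core of the W-box bound by WRKY factors, and TGACG, the core of the as-1 element bound by TGA factors. A TTGACG string holds both of the last 2. The stretches are chr3:9588999-9589248 on the plus strand, chr4:17571744-17571993 on the minus strand, chr4:11934719-11934968 on the plus strand and chr5:14213294-14213543 on the minus strand, each written 5′ to 3′ toward the gene.

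CYP71B22: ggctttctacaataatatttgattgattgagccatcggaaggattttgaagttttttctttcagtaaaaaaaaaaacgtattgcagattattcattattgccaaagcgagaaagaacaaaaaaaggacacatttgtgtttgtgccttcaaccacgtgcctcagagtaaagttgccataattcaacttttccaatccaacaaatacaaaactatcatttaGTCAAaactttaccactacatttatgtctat
CYP81D8: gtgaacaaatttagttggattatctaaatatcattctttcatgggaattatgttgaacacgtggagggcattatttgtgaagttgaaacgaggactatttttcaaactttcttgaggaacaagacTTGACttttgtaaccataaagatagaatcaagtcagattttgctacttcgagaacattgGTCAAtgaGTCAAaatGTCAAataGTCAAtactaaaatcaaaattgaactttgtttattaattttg
CYP706A2: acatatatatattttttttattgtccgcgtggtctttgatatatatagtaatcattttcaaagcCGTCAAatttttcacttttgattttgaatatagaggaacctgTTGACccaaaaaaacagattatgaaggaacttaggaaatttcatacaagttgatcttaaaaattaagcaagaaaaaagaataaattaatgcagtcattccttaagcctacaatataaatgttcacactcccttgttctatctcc
CYP716A2: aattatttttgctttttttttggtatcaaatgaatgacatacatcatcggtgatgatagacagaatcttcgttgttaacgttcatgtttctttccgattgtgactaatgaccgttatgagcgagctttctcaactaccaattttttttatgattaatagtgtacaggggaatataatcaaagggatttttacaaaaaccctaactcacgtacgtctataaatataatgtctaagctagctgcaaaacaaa

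The P1BS letters were in 5.44% of all 26686 promoters of this length and in 11 of 207 member promoters (5.31%). They were in 0 of the 6 promoters of members higher by 0.5 or more with the phr1 allele in both pairs. That count says little of so few promoters at such a share. They were in 1 of the 5 promoters of members past 2-fold in any comparison, that of CYP89A6. The TTGAC core was in 45.0% of all promoters, in 104 of 207 member promoters (50.2%) and in 6 of those 6, with 5 matches before CYP81D8, 4 of them between 66 and 42 bases before the start. The TGACG core was in 18.6% of all promoters, in 16.4% of member promoters and in 1 of the 6, CYP706A2. The CYP716A2 promoter held none of the 3. TTGAC was in the promoters of 4 of the 5 members past 2-fold in any comparison, all but CYP716A2. These included CYP702A5, which was lower in hho2phr1 than in Col-0. The TTGAC match was thus not limited to members higher with the phr1 allele. Such matches describe letters in this window only.

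CYP71B22 lies in a run of 11 P450 genes on chromosome 3, between CYP86C2 and CYP71B24, each within 20 kb of the next. A second run of 8, CYP71B25 to CYP71B37, follows. On the log2 scale used here, its neighbours at 1 FPKM or more had smaller differences. CYP71B23, next to it on one side, stood at 52.1 FPKM in hho2phr1, 53.4 in phr1, 45.6 in hho2-1 and 48.7 in Col-0, and CYP71B3, the one after, at 41.1 FPKM in hho2phr1, 38.1 in phr1, 48.5 in hho2-1 and 37.0 in Col-0. On the other side CYP71B21, whose coding sequence is the closest to it at 87.3% identity, stayed under 1 FPKM, at 0.0738 FPKM in hho2phr1, 0.285 in phr1, 0.0167 in hho2-1 and 0.0469 in Col-0. Its ratio was 6.08 in phr1 over Col-0 and 4.42 in hho2phr1 over hho2-1, both above those of CYP71B22, on levels of few fragments whose intervals overlapped in both pairs. CYP71B20, one further, stood at 42.7 FPKM in hho2phr1, 37.1 in phr1, 43.4 in hho2-1 and 36.4 in Col-0, and its coding sequence was 96.2% identical to that of CYP71B19, which stood at 25.3 FPKM in hho2phr1, 20.9 in phr1, 18.5 in hho2-1 and 18.5 in Col-0. In the second run 5 of the 8 genes reached 1 FPKM, and all 5 were below 0 in phr1 against Col-0, between -0.50 for CYP71B35 and -0.19 for CYP71B34. In hho2phr1 against hho2-1 they lay between -0.49 for CYP71B35 and 0.04 for CYP71B4.

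**Figure D4:**
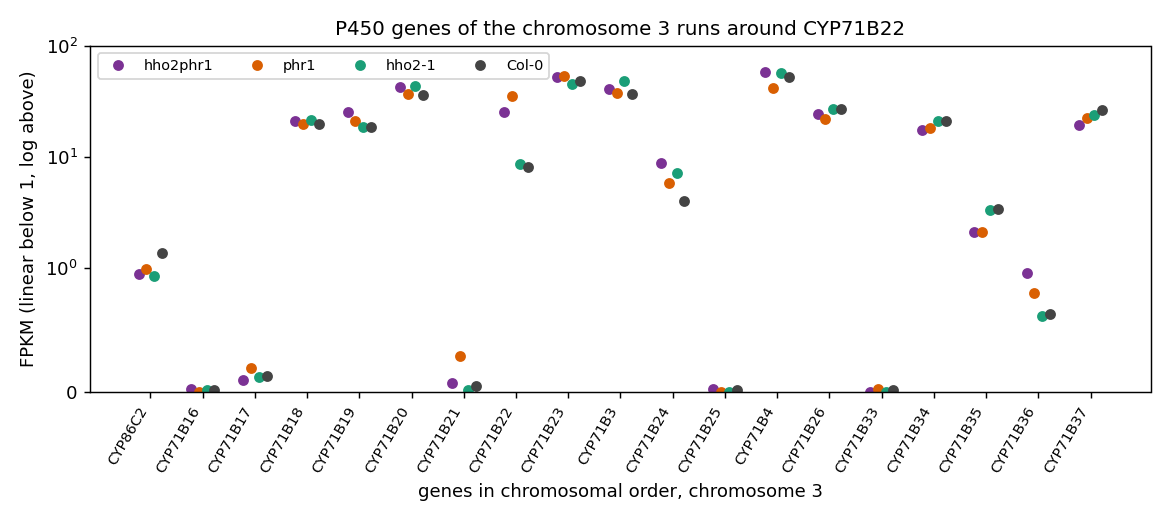
FPKM of the P450 genes of the 2 neighbouring runs on chromosome 3, in chromosomal order, with 1 point per library and an axis that is linear below 1 and logarithmic above. CYP71B22 stands at 25.3 and 35.7 FPKM in hho2phr1 and phr1 against 8.58 and 8.07 in hho2-1 and Col-0, while the points of CYP71B23 lie between 45.6 and 53.4 and those of CYP71B3 between 37.0 and 48.5.

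In all, 144 of the 219 members lay in 37 runs of 2 or more within 20 kb, 9 of them with at least 5 genes. The other members of the run that holds CYP81D8, on chromosome 4 between CYP81H1 and CYP91A2, had smaller differences. CYP81D2 was at 0 FPKM in all 4 libraries. The others lay between -0.17 for CYP91A2, on a shared interval, and 0.18 for CYP81D3 in phr1 against Col-0. CYP81D3 was the farthest from 0 of those in hho2phr1 against hho2-1, at 0.43.

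CYP716A2 (AT5G36140, chromosome 5, 14212212 to 14213259) was the member 2-fold lower in phr1 against Col-0. Together with CYP716A1 it oxidises pentacyclic triterpenes when expressed in yeast. Its coding sequence in the reference had only 957 bases, against a median of 1527 over the members. This sequence did not hold the usual form of the haem-binding loop. CYP716A2 stood at 33.3 FPKM in hho2phr1, 15.2 in phr1, 21.8 in hho2-1 and 35.7 in Col-0, so that phr1 was lowest, hho2-1 next, and the double mutant close to the wild type. The intervals were 25.4 to 41.2 in hho2phr1, 11.1 to 19.3 in phr1, 16.3 to 27.3 in hho2-1 and 27.3 to 44.0 in Col-0. The difference was -1.18 in phr1 against Col-0 and 0.59 in hho2phr1 against hho2-1, with intervals apart in the first pair only. With the hho2 allele it was -0.69 in hho2-1 against Col-0 and 1.08 in hho2phr1 against phr1, with intervals apart in both. CYP716A1, close by on the same chromosome and 86.5% identical over the aligned coding sequence, stood at 4.89 FPKM in hho2phr1, 3.31 in phr1, 4.74 in hho2-1 and 6.12 in Col-0, with the same order of libraries and hho2phr1 and hho2-1 nearly level. The summed shoot and seed markers were lowest in phr1, as CYP716A2 was, but highest in hho2phr1, where CYP716A2 and CYP716A1 were highest in Col-0. The shoot sum was 2551 FPKM in hho2phr1, 1856 in phr1, 2128 in hho2-1 and 1988 in Col-0. Their part in the pattern of CYP716A2 was not tested.

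The hho2 allele was compared with intact HHO2 in hho2-1 against Col-0 and in hho2phr1 against phr1, again without a shared library. In hho2-1 against Col-0, 0 of 135 members were 2-fold different, where 0.88% of all 20341 genes were, 0.418% higher and 0.462% lower, and 0.172% with intervals apart. In hho2phr1 against phr1, 1 of 133 was higher, CYP716A2, where 1.11% of all 20353 genes were 2-fold different, 0.634% higher and 0.472% lower, and 0.383% with intervals apart. The same direction in both pairs was met by 0 of 130 members, where 0.21% of 20044 genes met it. At a size of 0.5, 10 members differed in hho2-1 against Col-0, 3 higher and 7 lower, where 3.78% of all genes did, 375 higher and 393 lower. In hho2phr1 against phr1 the count was 8, 7 higher and 1 lower, where 5.14% of all genes differed, 572 higher and 475 lower. Intervals were apart at any size for CYP71B24 and CYP716A2 in hho2-1 against Col-0 (0.531% of all genes) and for CYP716A2 in hho2phr1 against phr1 (1.09% of all genes).

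At a log2 difference of at least 0.5, 1 member was higher and 1 lower with the hho2 allele in both pairs, where 0.679% of all genes met that size. The higher one was CYP71B24, of the chromosome 3 run, at 8.80 FPKM in hho2phr1, 5.79 in phr1, 7.24 in hho2-1 and 4.01 in Col-0. It differed by 0.72 in hho2-1 against Col-0, with intervals apart, and by 0.53 in hho2phr1 against phr1, with overlapping intervals. The lower one was CYP702A5 (AT4G15393, chromosome 4, 8804120 to 8807203). It stood at 17.5 FPKM in hho2phr1, 27.1 in phr1, 25.7 in hho2-1 and 37.8 in Col-0, highest in the wild type and lowest in the double mutant, with both single mutants between. Its differences were -0.54 in hho2-1 against Col-0 and -0.60 in hho2phr1 against phr1, both with overlapping intervals. Its coding sequence was 92.0% identical to that of CYP702A6, which stood at 8.05 FPKM in hho2phr1, 8.33 in phr1, 9.85 in hho2-1 and 10.2 in Col-0.

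**Figure D5:**
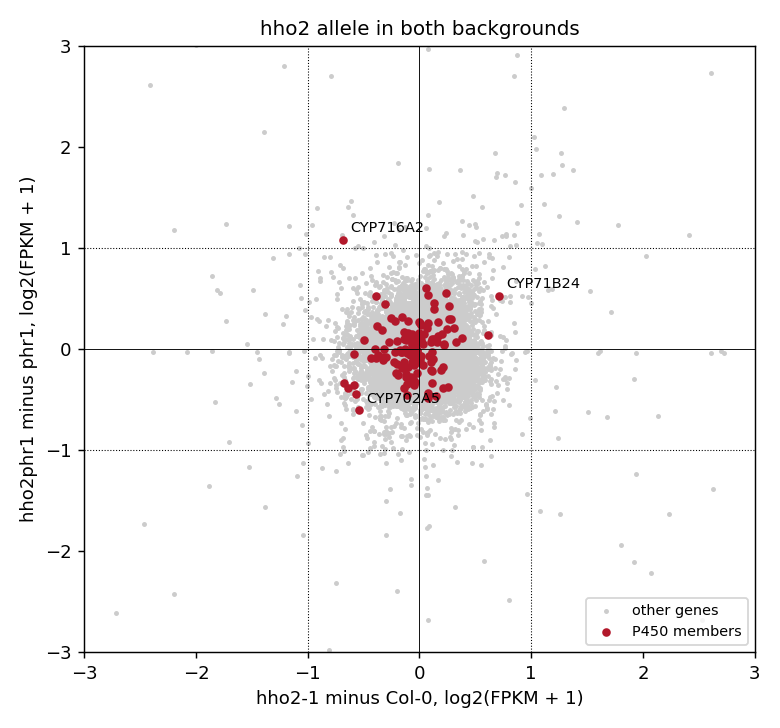
Log2 difference of each gene with the hho2 allele, in hho2-1 against Col-0 (x axis) and in hho2phr1 against phr1 (y axis), with the P450 members in red, other genes in grey and dotted lines at a difference of 1. CYP716A2 is the only member past 1 on either axis, at -0.69 and 1.08, and 36 other genes fall outside the axes.

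Small differences with the hho2 allele leaned one way in the CYP705A subfamily, which holds thalianol and arabidiol enzymes and has 28 members, 21 of them at 1 FPKM or more. In hho2-1 against Col-0, 18 of the 21 were below 0 with a median of -0.12, and in hho2phr1 against phr1, 17 of 21 with a median of -0.23. The medians of all genes were 0.00 and -0.01. Of all members, 83 of 135 were below 0 in hho2-1 against Col-0 and 69 of 133 in hho2phr1 against phr1. Of the 21, 15 were below 0 in both pairs and 1 was above 0 in both, while with the phr1 allele 5 were below and 8 above in both. None reached 2-fold. The lowest in hho2-1 against Col-0 was CYP705A4, picked out here after its values were seen, at -0.64 there and -0.38 in hho2phr1 against phr1. The counts below 0 were 18 and 18 after scaling to equal medians. The 4 root markers were each lower in hho2-1 than in Col-0 (sums of 196 FPKM in hho2-1 and 243 in Col-0), and 2 of the 4 were lower in hho2phr1 than in phr1 (sums of 245 FPKM in hho2phr1 and 233 in phr1). Their part in the CYP705A differences was not tested. Over all 130 members measured in both pairs, 51 were below 0 and 32 above 0 in both, against 5055 and 4726 of 20044 genes.

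The double mutant against Col-0 holds both alleles. Here 4 of 137 members were 2-fold different, 3 higher and 1 lower, where 1.91% of all 20400 genes were, 1.26% higher and 0.647% lower. The higher ones were CYP71B22 (1.54), CYP81D8 (1.47) and CYP89A6 (1.01), and the lower one was CYP702A5 (-1.07), all with intervals apart, where 1.1% of all genes were 2-fold different with intervals apart. At a size of 0.5 the count was 16, 11 higher and 5 lower, where 7.29% of all genes differed, 860 higher and 627 lower. CYP89A6 (AT1G64940, chromosome 1, 24123789 to 24125324) stood at 3.15 FPKM in hho2phr1, 1.73 in phr1, 1.15 in hho2-1 and 1.06 in Col-0. Its coding sequence was 94.1% identical to that of its neighbour CYP89A5, at 44.2 FPKM in hho2phr1, 42.9 in phr1, 32.2 in hho2-1 and 33.7 in Col-0.

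CYP706A2, CYP71B24 and CYP72A8 lay below the rule in the double mutant against Col-0, at 0.99, 0.97 and 0.86, with intervals apart. Smaller differences with intervals apart were those of CYP76C6, at 2.19 FPKM in hho2phr1 against 0.855 in Col-0, of CYP71A22, at 7.79 in hho2phr1 against 4.22 in Col-0, and of CYP71A23, on a shared interval, at 1.08 in hho2phr1 against 0.250 in Col-0. CYP707A3, an abscisic acid 8′-hydroxylase, was at 4.76 FPKM in hho2phr1 against 8.46 in Col-0 (-0.72), with intervals apart. With the intervals apart at any size, 9 members were higher and 2 lower (8.03% of 137), where 2.38% of all genes had intervals apart, 330 higher and 156 lower.

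Of 9 measured members for abscisic acid breakdown, gibberellin, cytokinin, strigolactone, brassinosteroid or jasmonate, 0 were 2-fold different in any comparison, a count that says little of so few genes where 3.42% of all genes were. At a size of 0.5, 4 of the 9 differed in at least 1 comparison, CYP707A3, CYP735A2, CYP90D1 and CYP94B1, where 17.44% of all genes did. Of 4 abscisic acid 8′-hydroxylase genes 2 reached 1 FPKM. CYP707A1 stood at 15.4 FPKM in hho2phr1, 15.8 in phr1, 13.8 in hho2-1 and 14.7 in Col-0, and CYP707A3 at 4.76 FPKM in hho2phr1, 6.27 in phr1, 4.92 in hho2-1 and 8.46 in Col-0, highest in the wild type. CYP707A3 differed by -0.68 in hho2-1 against Col-0, with overlapping intervals. Among their partners NCED3, the rate-limiting step of abscisic acid synthesis, stood at 5.58 FPKM in hho2phr1, 4.24 in phr1, 2.35 in hho2-1 and 3.40 in Col-0. NCED3 had the highest difference of the 4 partners in hho2phr1 against hho2-1, at 0.97. Of the 4, 2 were above 0 and 2 below there, with a median of 0.05.

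CYP88A3, an ent-kaurenoic acid oxidase of gibberellin synthesis, stood at 11.1 FPKM in hho2phr1, 12.5 in phr1, 11.5 in hho2-1 and 11.9 in Col-0, and CYP714A1, which inactivates gibberellins, at 3.58 FPKM in hho2phr1, 4.003 in phr1, 4.01 in hho2-1 and 4.87 in Col-0. All 4 measured gibberellin partner genes, GA2, GA20OX1, GA20OX2 and GA3OX1, were below 0 in hho2phr1 against hho2-1, with a median of -0.44, while in phr1 against Col-0 2 were above and 2 below 0. CYP735A2, which makes trans-zeatin, stood at 22.1 FPKM in hho2phr1, 26.9 in phr1, 17.1 in hho2-1 and 18.7 in Col-0, and CYP735A1 between 1.00 FPKM in hho2-1 and 1.49 in hho2phr1. The strigolactone gene CYP711A1 (MAX1), on a shared interval, lay between 10.9 FPKM in phr1 and 12.5 in hho2-1, and its partner CCD8 stood at 6.75 FPKM in hho2phr1, 4.72 in phr1, 8.32 in hho2-1 and 8.12 in Col-0. CYP90D1, a brassinosteroid hydroxylase, was highest in hho2-1, at 6.74 FPKM in hho2phr1, 6.02 in phr1, 9.53 in hho2-1 and 5.88 in Col-0, a difference of 0.61 in hho2-1 against Col-0. CYP94B1, which hydroxylates jasmonoyl-isoleucine, was highest in hho2phr1, at 16.7 FPKM in hho2phr1, 11.3 in phr1, 10.3 in hho2-1 and 13.8 in Col-0, a difference of 0.65 in hho2phr1 against hho2-1 and 0.52 in hho2phr1 against phr1.

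Of 22 members listed by their P450 name as fatty acid hydroxylases, 15 were measured. Their differences lay between -0.46 and 0.44 over the 5 comparisons. The list includes enzymes of cutin and suberin, but a place on it does not show that a member acts there. None was past 0.5 in any comparison, where 17.44% of all genes were. That count depends on the list, which was drawn up with earlier results of these data known. It leaves out CYP94B1, given above for jasmonate (0.65 in hho2phr1 against hho2-1), and CYP96A4 (-0.57 in hho2-1 against Col-0). In phr1 against Col-0, 10 of the 15 were below 0, with a median of -0.01. CYP86A1 and CYP86B1, which make suberin monomers in the root, stood at 30.7 FPKM in hho2phr1, 24.6 in phr1, 24.5 in hho2-1 and 29.4 in Col-0 for the first and 13.4 FPKM in hho2phr1, 10.8 in phr1, 12.9 in hho2-1 and 15.2 in Col-0 for the second. CYP86A2, a cutin enzyme on a shared interval, lay between 48.0 FPKM in hho2-1 and 53.0 in Col-0 and CYP86A8 between 14.3 FPKM in phr1 and 16.4 in hho2-1. CYP704A2 lay between 39.3 FPKM in hho2phr1 and 42.4 in hho2-1, and CYP94D2 between 8.45 FPKM in hho2-1 and 9.64 in phr1. CYP77A5P, annotated as protein coding, lay between 17.42 FPKM in Col-0 and 18.8 in hho2phr1, and CYP77B1 between 6.42 FPKM in phr1 and 7.69 in hho2-1. Neither CYP77A5P nor CYP77B1 held the usual form of the haem-binding loop. Of 9 measured suberin partner genes 8 were below 0 in phr1 against Col-0, with a median of -0.39. In hho2phr1 against hho2-1, 5 were below 0 and 4 above, with a median of -0.11. With the hho2 allele 8 of 9 were above 0 in hho2phr1 against phr1, with a median of 0.18, and 8 of 9 were below 0 in hho2-1 against Col-0, with a median of -0.10. The comparisons phr1 against Col-0 and hho2phr1 against phr1 share the phr1 library. The feruloyl transferase ASFT stood at 32.3 FPKM in hho2phr1, 26.4 in phr1, 39.1 in hho2-1 and 40.5 in Col-0.

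The sterol C-22 desaturases CYP710A1 and CYP710A2 were lowest in hho2-1, at 27.3 FPKM in hho2phr1, 23.8 in phr1, 16.2 in hho2-1 and 20.7 in Col-0 for the first and 46.4 FPKM in hho2phr1, 39.3 in phr1, 31.1 in hho2-1 and 40.8 in Col-0 for the second. CYP710A1 differed by 0.72 in hho2phr1 against hho2-1, with intervals apart. CYP710A4, whose coding sequence is 95.8% identical to that of CYP710A3, stood at 1.09 FPKM in hho2phr1, 0.620 in phr1, 0.197 in hho2-1 and 0.723 in Col-0. CYP51G2, annotated as a pseudogene, lay between 1.96 FPKM in hho2phr1 and 2.997 in phr1. CYP97A3, a beta-ring carotene hydroxylase on a shared interval, lay between 6.11 FPKM in phr1 and 8.96 in hho2-1, and CYP97B3 between 17.5 FPKM in Col-0 and 22.2 in hho2-1.

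Triterpene members, 9 of 11 measured, were all below 0 in hho2-1 against Col-0, with a median of -0.31, and 8 of 9 were below 0 in phr1 against Col-0, with a median of -0.26. Of all 135 members in each, 83 were below 0 in hho2-1 against Col-0 and 72 in phr1 against Col-0. These comparisons share the Col-0 library. In the pairs without Col-0 the medians were 0.04 in hho2phr1 against hho2-1 and -0.03 in hho2phr1 against phr1. The root markers, with the sums given above, were also lower in hho2-1 than in Col-0, and their part in these differences was not tested. The marneral oxidase CYP71A16 stood at 32.7 FPKM in hho2phr1, 33.4 in phr1, 32.5 in hho2-1 and 36.4 in Col-0, and CYP705A1, which cleaves arabidiol to a volatile homoterpene in roots, at 16.0 FPKM in hho2phr1, 16.3 in phr1, 12.2 in hho2-1 and 13.9 in Col-0. The thalianol synthase gene THAS1 stood at 186 FPKM in hho2phr1, 158 in phr1, 193 in hho2-1 and 215 in Col-0, highest in Col-0 as CYP705A5 and CYP708A2 were. THAA, also a listed triterpene partner, stood at 25.0 FPKM in hho2phr1, 16.8 in phr1, 18.7 in hho2-1 and 20.8 in Col-0. Its level was thus highest in hho2phr1, not in Col-0. The marneral synthase MRN1 stood at 30.1 FPKM in hho2phr1, 29.9 in phr1, 19.2 in hho2-1 and 30.3 in Col-0.

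Of the indolic members not left out, CYP81F3 lay between 17.7 FPKM in Col-0 and 20.2 in phr1. CYP76C1, the linalool oxidase, stood at 15.8 FPKM in hho2phr1, 12.98 in phr1, 15.01 in hho2-1 and 15.01 in Col-0. Of 6 CYP78A genes, to which the growth regulator KLUH (CYP78A5) belongs, 5 were measured, and all 5 were below 0 in hho2phr1 against phr1, with a median of -0.13. In hho2-1 against Col-0, 3 of the 5 were above 0 and 2 below, with a median of 0.10. CYP78A5 lay between 9.24 FPKM in hho2phr1 and 10.8 in hho2-1, CYP78A8 between 19.0 FPKM in hho2phr1 and 26.5 in hho2-1, CYP78A7 between 3.48 FPKM in hho2-1 and 4.62 in Col-0, CYP78A6 between 2.17 FPKM in hho2-1 and 2.90 in phr1, and CYP78A9 between 0.989 FPKM in hho2phr1 and 1.39 in hho2-1.

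Differences of 8 reductase and cytochrome b5 genes, listed as possible electron donors, lay between -0.26 and 0.33 over the 5 comparisons. The list includes ATR3, for which a role with P450 enzymes is not shown here. The P450 reductase ATR1, on a shared interval, stood at 166 FPKM in hho2phr1, 159 in phr1, 163 in hho2-1 and 158 in Col-0, and ATR2, which serves mainly phenylpropanoid enzymes, at 167 FPKM in hho2phr1, 167 in phr1, 138 in hho2-1 and 145 in Col-0. Of 10 lignin-pathway partners all 10 were above 0 in hho2phr1 against phr1, with a median of 0.15, where 48.4% of all genes were above 0. In hho2-1 against Col-0 6 were below 0, with a median of -0.10. In phr1 against Col-0, 9 of the 10 were below 0, with a median of -0.13, and in hho2phr1 against hho2-1, 7 were above 0, with a median of 0.08. PAL1, the first enzyme of the pathway, stood at 174 FPKM in hho2phr1, 146 in phr1, 165 in hho2-1 and 182 in Col-0.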

How the data were processed

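Poly(A)+ RNA of 4 genotypes was sequenced, 1 library each. TopHat2 2.0.11, Cuffdiff 2.2.1 and the build TAIR10 are named in the submitters' processing notes. The deposited values are FPKM with the authors' 95% interval in FPKM, per the file headers. The model behind the interval, the annotation release and the treatment of multiply aligned reads are not given in the sources used here, and with 1 library each the spread between plants of a genotype was not measured. Columns were matched to genotypes by name (WT to Col-0, dbl to hho2phr1).

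Differences of log2(FPKM + 1) were computed in Python 3.11.15 with pandas 2.3.3 for genes at 1 FPKM or more in at least 1 of the 2 libraries compared. No test was run between single libraries. Library size was taken from genes with low values, whose FPKM times length less 200 nucleotides steps by whole fragments (95.9% to 97.4% of low values, tolerance 0.04). Genes named by a set rule were those past the size rule, the 10 members with the highest mean and up to 8 of each role list by mean FPKM. Other members were named for a difference of at least 0.5, for intervals apart, or as neighbours or close sequences of a named member. CYP705A4 was picked after its values were seen. Members, lists and tests were chosen with earlier results of these data known.

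All 219 members were found in the TAIR10.1 annotation (RefSeq), used for names, strands and sequences. Of 32810 genes compared, 16464 had the same start or end there as in the table. The table lists 2 loci as CYP81D1, and AT3G28740 is named CYP81D11 here after the reference. Of the members, 21 share their interval with another gene (18 of them at 1 FPKM or more), 6 have a coding sequence at least 95% identical to another P450, and none had a failed quantification status.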

Additional observations from a re-analysis of the deposited data

Results flagged for a closer look

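CYP716A2 differed in opposite directions in the 2 backgrounds of each allele. With the phr1 allele it was lower in phr1 against Col-0 (-1.18) and higher in hho2phr1 against hho2-1 (0.59). With the hho2 allele it was lower in hho2-1 against Col-0 (-0.69) and higher in hho2phr1 against phr1 (1.08). The 2 effects of an allele lie 1.77 apart on the log2 scale, the same value for both alleles since the same 4 libraries enter. With 1 library per genotype this difference was not tested.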

How the results depend on the processing

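Other pseudocounts and scaling gave 27 values for members past the 2-fold rule, of which 24 stayed past it, 3 came below it, all with a pseudocount of 5, and 0 changed sign. The other alternatives cannot change such a value, only drop the member, as a filter of 5 FPKM did for CYP89A6. The number of members past the rule moved as follows. With a pseudocount of 0.1 it was 1 in hho2-1 against Col-0, 7 in hho2phr1 against hho2-1 and 8 in hho2phr1 against Col-0 (where all genes were at 1.44%, 3.67% and 3.14%). With a pseudocount of 5 it was 0 in hho2phr1 against phr1 and 2 in hho2phr1 against Col-0 (all genes 0.383% and 0.75%). At a size of 0.5, chosen after seeing the data, it was 11 in phr1 against Col-0, 10 in hho2-1 against Col-0, 19 in hho2phr1 against hho2-1, 8 in hho2phr1 against phr1 and 16 in hho2phr1 against Col-0, with 6 for phr1 and 2 for hho2 in both backgrounds. All other counts, under no filter, a filter of 5 FPKM, scaling to equal medians, intervals apart or without members on shared intervals, stayed within 1.5 times. Scaling shifted the median of all genes by at most 0.02. No replicate could be left out, with 1 library per genotype. No paired analysis was possible because replicate numbers link no libraries beyond the 1 of each genotype. Each allele was followed in 2 pairs of libraries, and a fit of both alleles, which would leave 1 residual degree of freedom, was not run. No variation between plants of a genotype was measured, which limits every difference given. Members under 1 FPKM in both libraries of a pair were not compared under the main rule, and only ratios are given for CYP71B21.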
